A study of Mus musculus with 12 samples.

Results

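The genes described here are the small leucine-rich proteoglycans, a family of secreted proteins of the extracellular matrix. The 8 members are Aspn (asporin), Ogn (osteoglycin), Omd (osteomodulin), Dcn (decorin), Lum (lumican), Bgn (biglycan), Fmod (fibromodulin) and Prelp, found by symbol among the 55487 genes of the count tables. The family was picked with earlier results of these data in view, in which Aspn and Ogn were among the genes with the largest rise in ovariectomized mice. The members were thus selected on their OVX against sham fold changes, and their values in that contrast are a description and carry no test. All libraries came from the limbs of C57BL/6 mice labelled as 8 weeks old. In the first experiment, bone marrow-derived macrophages (BMMs) grown with M-CSF came from mice whose ovaries had been removed (OVX, 3 libraries), a model of postmenopausal osteoporosis, or from sham-operated mice (3 libraries). The second experiment holds marrow mesenchymal stem cells (MSCs), obtained as adherent cells that were passaged, with 2 libraries in each of 3 groups. These groups were control MSCs alone (MSC), MSCs cultured across a transwell membrane from the RAW264.7 mouse macrophage line (MSC+RAW-TW), and MSCs cultured across the membrane from RAW cells stimulated with LPS (MSC+RAW-LPS-TW). The 2 libraries of each co-culture group are called a and b here, which only names them.

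Small leucine-rich proteoglycans are built from leucine-rich repeats that fold into a curved solenoid, and most of them bind collagen fibrils and set fibril diameter and spacing. Class I holds Bgn and Dcn, which carry chondroitin or dermatan sulfate chains, and Aspn, which carries none and has a stretch of aspartate. Class II holds Lum, Fmod and Omd, which can carry keratan sulfate, and Prelp, which has a basic end that binds heparin. Ogn belongs to class III. In bone, Bgn and Dcn are made by osteoblasts and their precursors, and Omd and Ogn are known from bone matrix. Bgn and Dcn set free from the matrix bind Toll-like receptors on macrophages, and several members bind growth factors of the TGF-beta family.

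Aspn, Omd and Ogn lie side by side on the plus strand of chromosome 13 of GRCm38, within 80.1 kb, at chr13:49544443-49567565, chr13:49582462-49592822 and chr13:49608046-49624501. All 3 lie inside Cenpp, which runs on the other strand and shares 7 exon bases with Aspn and 0 with Omd and Ogn. The sequences below run from 250 bases before to 50 bases after the RefSeq start of each gene, at chr13:49544193-49544492 for Aspn, chr13:49582212-49582511 for Omd and chr13:49607765-49608064 for Ogn. They are shown because these 3 neighbours stood highest above sham in the OVX libraries. Capitals mark matches to TATAAA, to the TEAD motif GGAATG and to the RUNX motif TGTGGT on either strand.
Aspn: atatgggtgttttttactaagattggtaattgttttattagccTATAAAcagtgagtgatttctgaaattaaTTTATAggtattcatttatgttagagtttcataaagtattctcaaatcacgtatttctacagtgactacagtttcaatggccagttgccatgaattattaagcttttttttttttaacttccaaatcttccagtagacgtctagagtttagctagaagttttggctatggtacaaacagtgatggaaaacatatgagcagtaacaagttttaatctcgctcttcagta
Omd: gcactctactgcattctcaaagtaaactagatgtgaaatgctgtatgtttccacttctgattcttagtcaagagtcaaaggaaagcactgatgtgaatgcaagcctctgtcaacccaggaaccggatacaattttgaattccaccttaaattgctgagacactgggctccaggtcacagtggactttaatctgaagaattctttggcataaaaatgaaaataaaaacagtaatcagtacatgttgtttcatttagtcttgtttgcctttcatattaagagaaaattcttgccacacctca
Ogn: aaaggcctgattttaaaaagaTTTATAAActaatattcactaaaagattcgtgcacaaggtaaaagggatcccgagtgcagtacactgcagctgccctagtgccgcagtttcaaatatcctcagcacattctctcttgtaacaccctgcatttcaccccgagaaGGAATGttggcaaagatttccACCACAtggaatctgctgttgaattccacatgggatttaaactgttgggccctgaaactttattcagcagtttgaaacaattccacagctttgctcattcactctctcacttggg

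The window of Aspn held 2 matches to TATAAA and that of Ogn held 2 that overlap each other. The Ogn window also held 1 match to the TEAD motif and 1 to the RUNX motif, and the Omd window held no match to any of these motifs. Of 32544 mouse promoter windows of this length, 13.6% held TATAAA, 14.6% the TEAD motif and 16.7% the RUNX motif. The AP-1 motif TGANTCA, the SMAD motif CAGAC and the full estrogen response element had no match in the 3 windows, against 7.8%, 49.5% and 0.1% of all windows. The GC content of the windows was 31.0% for Aspn, 37.7% for Omd and 42.3% for Ogn.

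Dcn and Lum are neighbours on chromosome 10, at chr10:97479609-97518143 and chr10:97565128-97572703. Prelp and Fmod are near each other on chromosome 1, at chr1:133910304-133921414 on the minus strand and chr1:134037254-134048277 on the plus strand. Bgn stands alone on the X chromosome at chrX:73483602-73495933. Prelp shares 350 exon bases, 9.7% of its exon length, with the antisense gene Gm15851. Whether the counting used strand is not given in the sources used here, so reads of Prelp and Gm15851 may not be told apart.

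Total counts ranged from 17012923 to 42401570 in the BMM libraries and from 29823130 to 45367105 in the MSC libraries. Sham replicates 2 and 3, and the 2 MSC+RAW-TW libraries, differed from each other far less than other libraries of one group. For genes with high counts, the spread between them was 2.81 and 3.26 times that of random sampling, against 18.51 to 120.59 times for the other pairs of one group. Each pair was therefore summed and counted as 1 sample, and its mean was used as 1 replicate below. The MSC+RAW-TW group then has 1 sample and no SD, and the fit assumed that it varied like the other groups. Nothing in the labels says that libraries came from separate mice or cultures, so p-values measure only the spread between these libraries, which may be technical.

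Each labelled cell type carried transcripts of another. All 15 macrophage markers and all 15 stromal markers had a mean of at least 1 CPM (counts per 1000000 counts of a library, with its size adjusted by the TMM factor) in the BMM experiment, and 15 and 14 of 15 did in the MSC experiment. Summed macrophage markers, which include the lysozyme gene Lyz2, ranged from 45503 to 49519 CPM in OVX and from 62768 to 67107 CPM in sham. In the MSC experiment they ranged from 29439 to 29747 CPM in MSC, from 39978 to 40547 CPM in MSC+RAW-TW and from 14344 to 15900 CPM in MSC+RAW-LPS-TW. Summed stromal markers, which include Cxcl12 and Postn, ranged from 2357 to 3084 CPM in OVX, 1882 to 2260.1 CPM in sham, 1077 to 1150.4 CPM in MSC, 1244 to 1275 CPM in MSC+RAW-TW and 1263 to 1298 CPM in MSC+RAW-LPS-TW. A higher or lower value in such mixed bulk samples can come from more or fewer cells of a type or from more or less RNA per cell, and these cannot be told apart.

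Bgn was the most abundant member in every library. Per kilobase of exon, its mean level in sham was 330.2 CPM per kb, followed by Dcn at 17.3, Ogn at 8.21 and Lum at 3.77 CPM per kb. Aspn, Fmod, Omd and Prelp were below 1 CPM per kb in sham, at 0.687, 0.613, 0.249 and 0.180. The ranges over sham libraries of Aspn and Fmod overlapped, as did those of Omd and Prelp. In OVX the order was Bgn at 269.1 CPM per kb, Ogn at 47.5, Dcn at 12.7, Lum at 5.71, Aspn at 4.12, Omd at 1.90, Fmod at 0.776 and Prelp at 0.230. Ogn thus stood above Dcn in OVX and below it in sham, and only the ranges of Lum and Aspn overlapped among neighbours in the OVX order. Bgn made up 90.7% to 92.5% of the members' summed CPM per kb in the sham libraries and 74.4% to 81.8% in the OVX libraries.

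Control MSCs had Bgn at 287.4 CPM per kb, then Ogn at 18.3, Fmod at 3.64, Prelp at 3.02, Dcn at 1.30, Omd at 1.07, Aspn at 1.06 and Lum at 0.160. The ranges of Fmod and Prelp overlapped between the 2 libraries, as did those of Dcn and Omd and those of Omd and Aspn. In MSC+RAW-TW the order was Bgn at 416.6 CPM per kb, Ogn at 6.71, Fmod at 4.20, Prelp at 2.01, Aspn at 1.05, Omd at 0.675, Dcn at 0.379 and Lum at 0.0702. In MSC+RAW-LPS-TW, Dcn came next with 33.2 CPM per kb and Lum followed with 9.15, behind Bgn at 260.8. There Ogn followed at 4.29, Fmod at 2.83, Prelp at 0.964, Aspn at 0.388 and Omd at 0.161 CPM per kb, with overlapping ranges for Aspn and Omd alone.

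**Figure D1:**
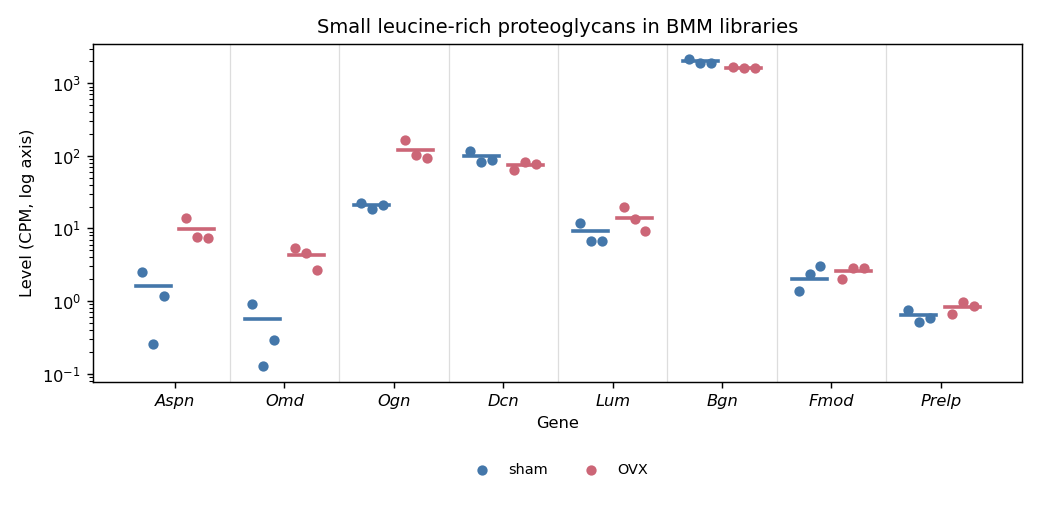
CPM of each member (log axis) in the 3 OVX and 3 sham libraries, 1 point per library and a bar at the group mean. The OVX points of Aspn, Ogn and Omd all lie above the sham points, and Bgn is the highest member in every library.

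The 3 members on chromosome 13 were higher in every OVX library than in every sham library. Ogn measured 167.8, 102.8 and 94.8 CPM in OVX replicates 1, 2 and 3, and 22.4, 18.3 and 21.3 CPM in sham replicates 1, 2 and 3. Its mean was 121.8 ± 40.1 CPM (SD, n = 3) in OVX and 21.1 ± 1.83 CPM (SD, n = 2) in sham. The groups did not overlap, and OVX replicate 1 was the highest library. Such separation was common, since every OVX library was above every sham library for 21.8% of the 16768 genes tested and below for 21.1%, and nothing is read from it for the members.

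Aspn, which binds TGF-beta and collagen, measured 13.9, 7.71 and 7.40 CPM in OVX and 2.53, 0.253 and 1.16 CPM in sham. Omd, which is found in mineralized matrix, measured 5.45, 4.65 and 2.69 CPM in OVX and 0.911, 0.127 and 0.291 CPM in sham. The groups did not overlap for either gene, but the sham values rest on few reads, with 97, 4 and 24 counts of Aspn and 35, 2 and 6 counts of Omd. Sham replicate 1 was the highest sham library for all 3 genes. Mean levels were 9.69 ± 3.69 CPM (SD, n = 3) against 1.62 ± 1.28 CPM (SD, n = 2) for Aspn and 4.27 ± 1.42 against 0.560 ± 0.497 CPM for Omd.

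In the edgeR fit across all genes, the log2 fold change of OVX over sham was 2.54 ± 0.53 (SE) for Aspn, 2.51 ± 0.29 for Ogn and 2.89 ± 0.59 for Omd. These correspond to 5.82-fold, 5.71-fold and 7.42-fold higher levels. A gene was called when its Benjamini-Hochberg adjusted p was at most 0.05 and its fold change at least 2. By this rule 3 of the 8 members were called and all 3 were higher, beside 5.39% of the 16768 genes tested called higher (903) and 3.08% called lower (516). Since the contrast chose the family, nothing is read from this share. All 8 members passed the filter on low counts in both experiments.

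The other 5 members were not called in OVX in this fit of the deposited counts. Dcn measured 64.2, 81.2 and 76.3 CPM in OVX and 117.6, 82.2 and 86.6 CPM in sham, with a log2 fold change of -0.46 ± 0.21. All 3 sham libraries were above the OVX libraries, by a narrow margin between OVX replicate 2 and sham replicate 2. Bgn measured 1656, 1645 and 1623 CPM in OVX and 2134, 1878 and 1908 CPM in sham, with a log2 fold change of -0.31. Lum, which regulates collagen fibrils in cornea and skin, measured 19.4, 13.4 and 9.12 CPM in OVX and 11.7, 6.71 and 6.78 CPM in sham, and its groups overlapped. Fmod, which promotes collagen cross-linking, ranged from 1.35 to 3.05 CPM and Prelp from 0.506 to 0.967 CPM over the 6 libraries, with overlapping groups.

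The size of these differences depended on how a trend with base composition was treated. Across genes, the Spearman correlation of a library's deviation with GC content was -0.615, -0.438 and -0.338 in OVX and 0.22, 0.528 and 0.536 in sham. Aspn, Omd, Ogn and Dcn have the lowest GC content of the members, at 34.3%, 36.1%, 36.3% and 37.4% of their longest transcript. It is 41.9% for Lum, 51.2% for Bgn, 53.7% for Fmod and 53.8% for Prelp. After lowess trends on GC content and on length were taken out of each library, the log2 fold change was 1.49 ± 0.17 for Ogn, 1.45 ± 0.39 for Aspn, 1.92 ± 0.48 for Omd and -1.35 ± 0.23 for Dcn. Over all genes 590 were then called, 220 higher and 370 lower. The members called were then Ogn, as higher, and Dcn, as lower. How far the trend is technical was not tested.

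**Figure D2:**
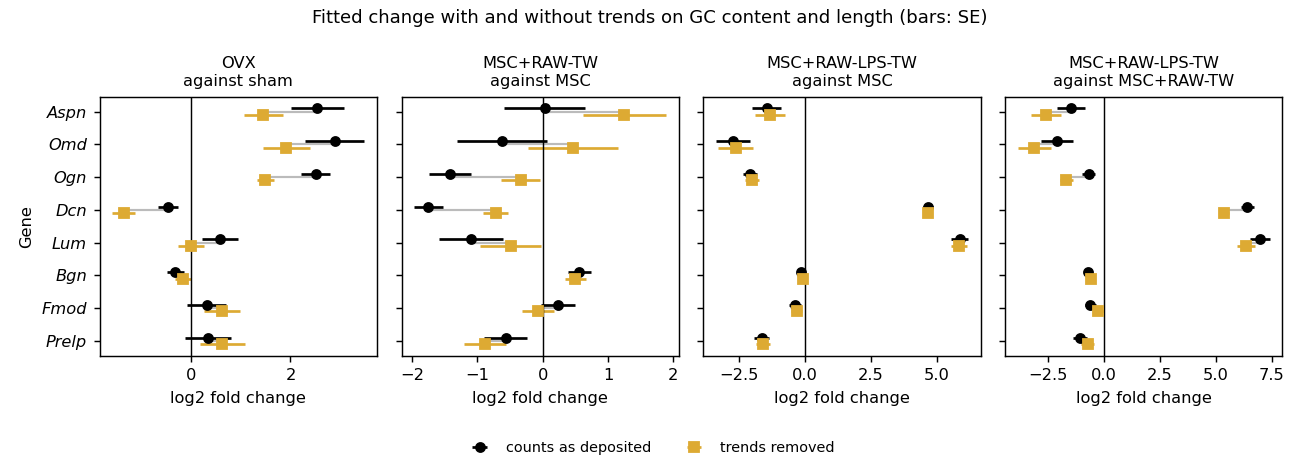
log2 fold change of each member (x axis, with bars of 1 SE) in the 4 contrasts, as fitted to the deposited counts (black circles) and after removing the GC and length trends (yellow squares). In OVX against sham, Aspn, Ogn, Omd and Dcn move left, to 1.45, 1.49, 1.92 and -1.35 from 2.54, 2.51, 2.89 and -0.46.

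The calls depended on single libraries, with 678 genes called without OVX replicate 1, 309 without OVX replicate 2 and 2390 without sham replicate 1. Aspn and Omd lost their calls without OVX replicate 1, without OVX replicate 2 and after the GC and length trends were taken out. Leaving out each library in turn, the log2 fold change ranged from 2.21 to 2.67 for Ogn, from 2.18 to 3.64 for Aspn and from 2.68 to 4.25 for Omd. The library numbers in the column headers fall into 2 runs, and each run holds libraries of both groups. With 0.5 CPM added to each value, the log2 difference of OVX over sham within the run of 1 OVX and 1 sham library was 2.46 for Ogn, 3.45 for Aspn and 3.04 for Omd. Within the run of 2 and 2 libraries it was 2.5 for Ogn, 2.25 for Aspn and 2.05 for Omd. For Dcn the values were -0.02 and -0.52. The near-identical sham replicates 2 and 3 fall in different runs, so the within-run differences share a sham sample and are not independent of each other.

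The same values can be given relative to stromal transcripts, as a further description of the contrast that chose the family. Per 1000 CPM of summed stromal markers, Ogn was at 39.8 to 54.4 CPM in OVX and 9.72 to 11.2 CPM in sham. Aspn was at 2.99 to 4.52 against 0.134 to 1.12 CPM, and Omd at 1.14 to 1.8 against 0.0672 to 0.403 CPM. Dcn was at 20.8 to 32.4 CPM in OVX against 43.7 to 52.1 CPM on this scale, and per 1000 CPM of Col1a1 it was at 33.7 to 41.6 against 42.1 to 57.5 CPM. The stromal sum holds Postn, which averaged 718.0 CPM in OVX and 193.7 CPM in sham. Of the 15 stromal markers, 2 were called higher and 1 lower in OVX, with Postn (log2 fold change 1.88) above sham and Ly6a (-1.11) below it. Summed osteoblast markers ranged from 42.5 to 45.7 CPM in OVX and from 24.8 to 28.5 CPM in sham, and Ibsp, a protein of mineralized bone, was called higher (log2 fold change 2.57). Of the 6 chondrocyte markers, 1 averaged 1 CPM or more, Sox9, which ranged from 13.2 to 14.2 CPM in OVX and from 8.16 to 9.89 CPM in sham and was not called. Comp was at 0.746 against 0.781 CPM, Matn3 was called higher (log2 fold change 2.85) at 0.893 against 0.126 CPM, and Snorc had 3 counts or fewer in every library. Summed smooth muscle and pericyte markers ranged from 2447 to 3031 CPM against 1717 to 1970.4 CPM. Of these 8 markers, 0 were called higher and 1 lower. Most of the sum was Acta2, at 2609 against 1696 CPM and not called, while Tagln had a log2 fold change of -0.41. Summed neutrophil markers ranged from 1197 to 1331 CPM in OVX and from 806.5 to 942.5 CPM in sham, with 0 of 8 called. Megakaryocyte markers ranged from 331.1 to 379.2 against 132.2 to 256.4 CPM, with 0 of 5 called. Most of the megakaryocyte sum was Pf4, at 323.4 against 160.2 CPM, while Itga2b was at 6.44 against 9.81 CPM. Summed osteoclast markers were lower, at 285.0 to 294.1 against 470.7 to 611.3 CPM, with 3 of 6 called lower, and 2 of 5 B cell markers were called lower. The part of these cell types in the difference of the members was not tested.

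**Figure D3:**
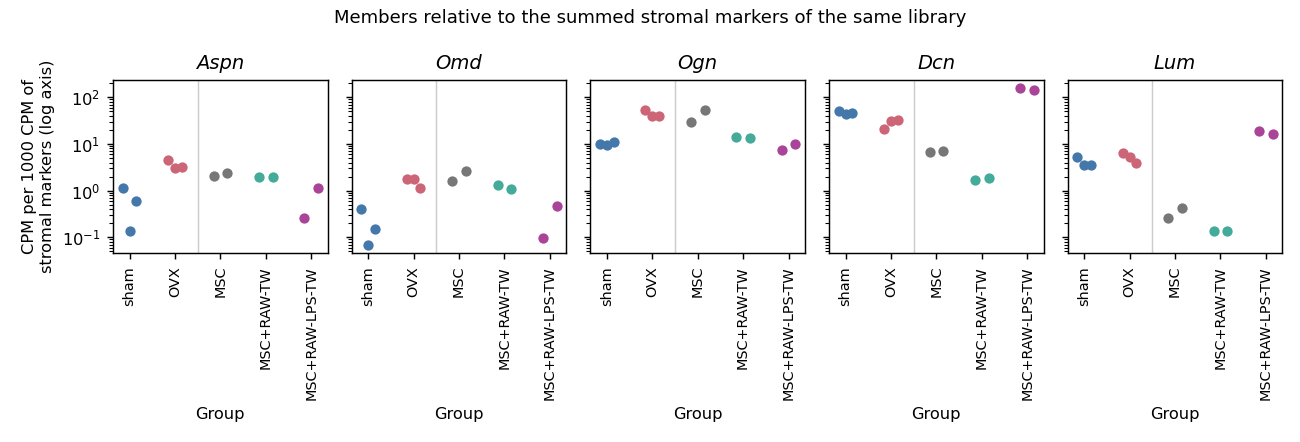
CPM of Aspn, Ogn, Omd, Dcn and Lum per 1000 CPM of summed stromal markers (log axis) in all 12 libraries by group. OVX libraries lie above sham for Aspn, Ogn and Omd and below sham for Dcn, and both MSC+RAW-LPS-TW libraries lie far above the other MSC libraries for Dcn and Lum.

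The genes next to the chromosome 13 members were also examined. Nol8, the next gene after Ogn at chr13:49653078-49679016, is a nucleolar protein gene outside the family. It ranged from 15.3 to 21.7 CPM in OVX and from 3.73 to 5.52 CPM in sham, and was called higher with a log2 fold change of 1.95 ± 0.24. Ecm2, the family gene before Aspn, had a log2 fold change of 0.75 ± 0.40 and Iars, after Nol8, one of 0.32, and neither was called. In the 3 MSC contrasts Nol8 was not called, and it ranged from 32.1 to 32.4 CPM in MSC, 38.2 to 39.2 CPM in MSC+RAW-TW and 33.1 to 33.2 CPM in MSC+RAW-LPS-TW. Beside Dcn and Lum, the family genes Kera and Epyc had 3 counts or fewer in every library.

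**Figure D4:**
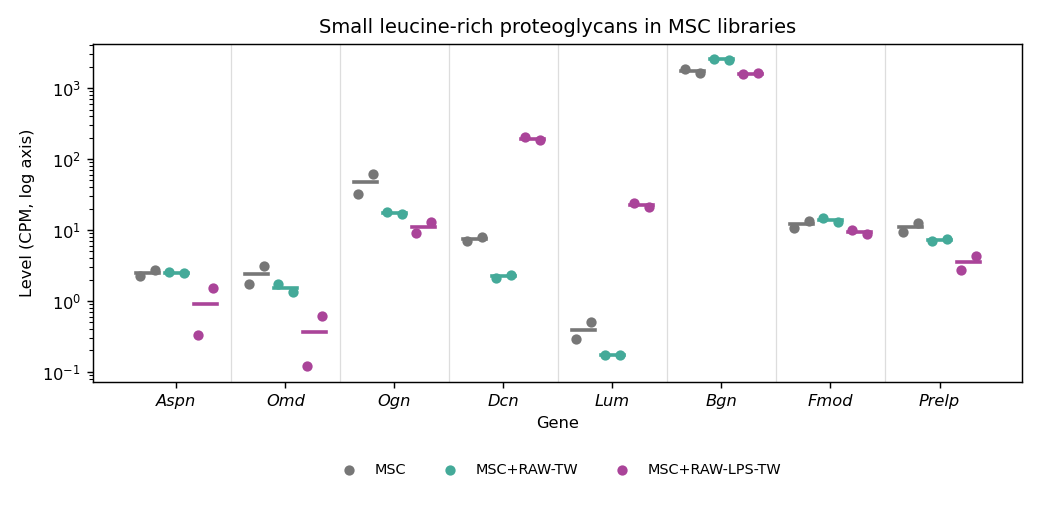
CPM of each member (log axis) in the 2 MSC, 2 MSC+RAW-TW and 2 MSC+RAW-LPS-TW libraries, 1 point per library and a bar at the group mean. Dcn and Lum are higher in both MSC+RAW-LPS-TW libraries than in all 4 others, and the other 6 members are lower there than in all 4 others, beside 21.4% and 18.2% of all genes tested.

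In the MSC experiment the first question was how MSCs differed after culture across a membrane from resting macrophages. Dcn and Ogn fell in MSC+RAW-TW, and no member was called higher. Dcn measured 7.08 and 8.07 CPM in MSC and 2.13 and 2.30 CPM in MSC+RAW-TW, and its log2 fold change was -1.75 ± 0.22 (edgeR, adjusted p = 0.0002), a 3.36-fold lower level. Ogn measured 32.3 and 61.8 CPM in MSC and 17.8 and 16.6 CPM in MSC+RAW-TW, with a log2 fold change of -1.42 ± 0.32 (edgeR, adjusted p = 0.00475). MSC replicate 2 was the highest library of Ogn, and without it the log2 fold change was -0.87, under the fold limit. The 2 of 8 members called lower stand beside 9.59% of the 20499 genes tested called lower (1966) and 6.8% called higher (1394).

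Bgn measured 1869 and 1636 CPM in MSC and 2550.1 and 2531 CPM in MSC+RAW-TW, a log2 fold change of 0.56 (edgeR, adjusted p = 0.0313) that stayed under the fold limit. Lum had 14 and 17 counts in MSC and 7 and 6 in MSC+RAW-TW, or 0.286 and 0.499 against 0.171 and 0.173 CPM, and was not called (edgeR, adjusted p = 0.105). Aspn measured 2.25 and 2.73 against 2.52 and 2.45 CPM and Omd 1.76 and 3.08 against 1.71 and 1.32 CPM, and neither was called. Fmod measured 10.6 and 13.5 against 14.7 and 13.1 CPM and Prelp 9.43 and 12.4 against 6.99 and 7.51 CPM. The log2 fold changes of these 4 genes lay between -0.62 and 0.24. The GC trend also split these groups, with a correlation of -0.242 and -0.321 in MSC, 0.411 and 0.408 in MSC+RAW-TW, and -0.289 and -0.148 in MSC+RAW-LPS-TW. With GC and length trends removed, neither was called, with Dcn at -0.72 ± 0.19 (edgeR, adjusted p = 0.0204, under the fold limit) and Ogn at -0.34 (edgeR, adjusted p = 0.451).

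The second question was how the MSCs differed when the macrophages across the membrane had been stimulated with LPS. Dcn and Lum, the neighbours on chromosome 10, rose far above both other MSC groups, and Ogn, Omd and Prelp fell. Dcn measured 203.7 and 183.8 CPM in MSC+RAW-LPS-TW, against 7.08 to 8.07 CPM in MSC and 2.13 to 2.30 CPM in MSC+RAW-TW. Its log2 fold change was 4.68 ± 0.18 over MSC (edgeR, adjusted p = 5.14e-11), a 25.6-fold higher level, and 6.42 ± 0.27 over MSC+RAW-TW (edgeR, adjusted p = 2.52e-10), 85.9-fold higher.

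Lum measured 23.7 and 21.1 CPM in MSC+RAW-LPS-TW, from 789 and 663 counts. Over MSC its log2 fold change was 5.87 ± 0.32 (edgeR, adjusted p = 1.92e-09), a 58.5-fold higher level, and over MSC+RAW-TW it was 6.97 ± 0.45 (edgeR, adjusted p = 2.08e-08). Both MSC+RAW-LPS-TW libraries were above the 4 other MSC libraries for both genes, as they were for 21.4% of the 20499 genes tested. Leaving out each library in turn, the log2 fold change over MSC ranged from 4.58 to 4.77 for Dcn and from 5.48 to 6.28 for Lum. Within the 2 runs of library numbers, the log2 difference over MSC was 4.75 and 4.43 for Dcn and 4.94 and 4.44 for Lum, with 0.5 CPM added to each value. This addition is larger than the level of Lum in both MSC libraries, so the values of Lum understate its difference. With GC and length trends removed it was 4.67 for Dcn and 5.85 for Lum. The contrasts against MSC and against MSC+RAW-TW share the MSC+RAW-LPS-TW libraries.

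Among the members that fell, Ogn measured 9.18 and 12.8 CPM in MSC+RAW-LPS-TW, with a log2 fold change of -2.1 ± 0.26 against MSC (edgeR, adjusted p = 2.24e-05). Against MSC+RAW-TW it was -0.68 ± 0.30 and was not called (edgeR, adjusted p = 0.0865), although with GC and length trends removed it was -1.68 (adjusted p = 0.000882). Prelp measured 2.70 and 4.27 CPM, with a log2 fold change of -1.65 ± 0.28 against MSC (edgeR, adjusted p = 0.000412) and -1.08 ± 0.32 against MSC+RAW-TW (edgeR, adjusted p = 0.014). Omd measured 0.120 and 0.606 CPM from 4 and 19 counts, with a log2 fold change of -2.74 ± 0.64 against MSC (edgeR, adjusted p = 0.0056) and -2.11 ± 0.71 against MSC+RAW-TW (edgeR, adjusted p = 0.0274). Leaving out 1 library moved the value of Omd between -4.29 and -2.01 against MSC and between -3.67 and -1.36 against MSC+RAW-TW. Library a was the lower one for all 3 genes. Without it, 2 members remained called against MSC+RAW-TW, since Omd (adjusted p = 0.0833) and Prelp (adjusted p = 0.0518) were not. Against MSC+RAW-TW the call of Omd was also lost with DESeq2 (adjusted p = 0.0581), in a fit of these 2 groups alone (0.0557) and without library a of MSC+RAW-TW (0.0574), and that of Prelp with raw totals (log2 fold change -0.96) and after the GC and length trends were taken out (-0.73).

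Aspn measured 0.330 and 1.50 CPM in MSC+RAW-LPS-TW, from 11 and 47 counts. Its log2 fold change was -1.45 ± 0.55 against MSC (edgeR, adjusted p = 0.0775) and -1.48 ± 0.63 against MSC+RAW-TW (edgeR, adjusted p = 0.0721), so it was not called in either. The call depended on the setting, since Aspn was called in 4 of 15 alternatives against MSC and in 7 of 15 against MSC+RAW-TW. The 2 libraries differed widely, and without library b the log2 fold change against MSC was -2.9 (adjusted p = 0.0008). With all libraries separate and a block on the runs of library numbers it was -1.58 against MSC (adjusted p = 0.0278) and -1.6 against MSC+RAW-TW (adjusted p = 0.0137). Bgn measured 1570.2 and 1611 CPM, with a log2 fold change of -0.14 against MSC (edgeR, adjusted p = 0.592) and -0.71 against MSC+RAW-TW (edgeR, adjusted p = 0.0059), under the fold limit. Fmod measured 9.93 and 8.77 CPM and was not called in either contrast, with log2 fold changes of -0.37 ± 0.22 and -0.61 ± 0.25.

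Against MSC, 2 members were called higher and 3 lower, beside 5.85% of genes called higher (1199) and 5.09% called lower (1044). Against MSC+RAW-TW, 2 members were called higher and 2 lower, beside 15.4% of genes called higher (3166) and 12% called lower (2458). The balance of these counts moved with the scaling. With raw library totals in place of TMM factors, the median log2 fold change of all genes was 0.24 in OVX, -0.49 in MSC+RAW-TW against MSC and -0.24 in MSC+RAW-LPS-TW against MSC, where it had been -0.01, -0.13 and -0.01. Genes called were then 1652 higher and 257 lower, 525 higher and 3497 lower, and 872 higher and 1569 lower in these contrasts. With GC and length trends removed, MSC+RAW-TW against MSC had 1128 called higher and 1037 lower.

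**Figure D5:**
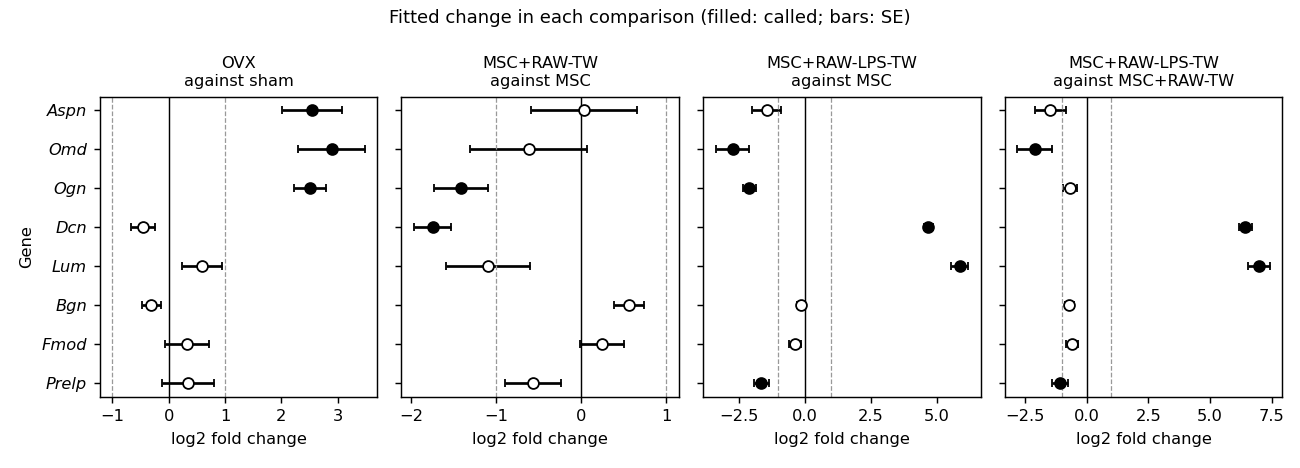
log2 fold change of each member in the 4 contrasts, with bars of 1 SE, filled where the member was called and with dashed lines at the fold limit of 1 on the log2 scale. Aspn, Ogn and Omd are above the limit in OVX, and Dcn and Lum are above 4 in both contrasts of MSC+RAW-LPS-TW.

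The levels of Dcn and Lum relative to stromal markers followed the same order of groups. Per 1000 CPM of stromal markers, Dcn was at 6.58 and 7.01 CPM in MSC, 1.67 and 1.85 in MSC+RAW-TW and 161 and 142 in MSC+RAW-LPS-TW. Lum was at 0.265 and 0.433, 0.134 and 0.139, and 18.7 and 16.3 CPM in the same groups. Ogn was at 30.0 and 53.7, 14.0 and 13.4, and 7.27 and 9.9 CPM. Of the 8 neutrophil markers, 2 averaged 1 CPM or more in the MSC experiment, S100a8 and Camp, while S100a9, Mpo and Ltf had 3 counts or fewer in every MSC library. S100a8 ranged from 10.9 to 15.8 CPM in MSC, from 29.7 to 32.9 CPM in MSC+RAW-TW and from 340.8 to 516.6 CPM in MSC+RAW-LPS-TW, and Camp from 28.6 to 39.7 CPM in the last group. Of the 15 macrophage markers, 1 was called higher and 6 lower in MSC+RAW-LPS-TW against MSC, and of the 15 stromal markers 5 were called higher and 1 lower. Osteoblast markers summed to 42.8 to 47.0 CPM in MSC, 54.3 to 55.7 CPM in MSC+RAW-TW and 41.0 to 41.8 CPM in MSC+RAW-LPS-TW. In the last group 1 of 7 was called lower against MSC, Ibsp, at means of 0.324 against 1.81 CPM. Against MSC+RAW-TW, edgeR called 3 of 7 lower, while DESeq2 called 1. The 3 markers with the highest level, Alpl, Runx2 and Sp7, were called in neither contrast. Their log2 fold changes against MSC+RAW-TW were -0.6, 0.34 and -0.21. The part of other cell types in the values of Dcn and Lum was not tested.

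The counts called in the lists that follow stand beside the shares of all genes called, which were 5.39% higher and 3.08% lower in OVX, 6.8% and 9.59% in MSC+RAW-TW against MSC, 5.85% and 5.09% in MSC+RAW-LPS-TW against MSC, and 15.4% and 12% between the co-cultures. A list count of 1 gene, or one near these shares, is not read as a result about the list.

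The 10 other genes of the family were mostly low. Tsku and Podnl1 were the highest of them in both experiments. Of the 6 tested in OVX, 0 were called by edgeR or by DESeq2, and for 0 of them was the unadjusted p 0.05 or less, while the median log2 fold change of these genes was -0.15 beside -0.01 over all genes tested. Ecm2, the neighbour of Aspn, was called higher in MSC+RAW-TW against MSC (log2 fold change 1.49 ± 0.40, edgeR, adjusted p = 0.0118) and lower after LPS stimulation when compared with MSC+RAW-TW (-2.26 ± 0.41, adjusted p = 0.000428). It ranged from 2.1 to 2.79 CPM in MSC, 6.50 to 7.02 in MSC+RAW-TW and 1.18 to 1.68 CPM in MSC+RAW-LPS-TW. Tsku, a secreted regulator of several growth factor pathways, was called higher in MSC+RAW-LPS-TW against MSC (1.28 ± 0.16, edgeR, adjusted p = 2.85e-05).

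Among the collagens, which many members bind, 1 of 14 genes was called in OVX, with Col11a1 at a log2 fold change of 1.47, while Col1a1 was at -0.03 and Col1a2 at 0.22. The median over the 14 genes was -0.02, beside -0.01 over all genes. In MSC+RAW-TW against MSC, 1 was called, Col11a2, which was lower with a log2 fold change of -2.31. In MSC+RAW-LPS-TW against MSC, 2 were called higher and 3 lower, with Col5a3 at 1.95 ± 0.15 (edgeR, adjusted p = 1.44e-07), Col6a1 at -1.42 ± 0.15 and Col6a2 at -1.31 ± 0.15. Against MSC+RAW-TW, 5 were called higher and 4 lower.

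Other listed genes process and cross-link collagen. Plod2, a lysyl hydroxylase, was the 1 of 26 genes called in OVX, with a log2 fold change of 1.24. Between MSC+RAW-TW and MSC, 1 of 25 was called higher, Pcolce (1.13), and 1 lower, Crtap (-1.14). In MSC+RAW-LPS-TW against MSC, 5 of 25 were called higher and 1 lower, with Plod2 at 2.03 ± 0.17 (edgeR, adjusted p = 3.13e-07), the prolyl hydroxylase P4ha2 at 1.61 ± 0.15 and the lysyl oxidase Lox at 1.56 ± 0.21. The median over this list was 0.62 there, beside -0.01 over all genes. Against MSC+RAW-TW, 7 were called higher and 3 lower.

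The enzymes that build the sugar chains of the members were examined in the same way. Of 23 genes for chondroitin and dermatan sulfate synthesis, 1 was called higher and 3 lower in OVX, with the xylosyltransferase Xylt2 at -1.58, Csgalnact2 at 1.07 and Chst7 at -1.07. Resting co-culture had 1 called higher and 4 lower against MSC. In MSC+RAW-LPS-TW against MSC, 5 were called higher and 1 lower, with Csgalnact1 at 1.87 ± 0.19 (edgeR, adjusted p = 3.23e-06), Chsy3 at 1.75 ± 0.46 and Chst11 at 1.29 ± 0.16. Against MSC+RAW-TW, 8 were called higher and 2 lower. Of the keratan sulfate genes, 0 of 10 were called in OVX by edgeR or by DESeq2, with 2 at an unadjusted p of at most 0.05, and 1 of 9 was called higher in MSC+RAW-TW against MSC, the galactosyltransferase B4galt2 (1.37). In MSC+RAW-LPS-TW against MSC, B3gnt2 was called higher (2.70 ± 0.49, edgeR, adjusted p = 0.000715) and B3gnt7, which extends keratan sulfate, lower (-3.12 ± 0.28, adjusted p = 7.07e-07). Against MSC+RAW-TW, 4 were called and all 4 were lower, B3gnt7 among them at -4.12 ± 0.31.

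Of 17 receptors that bind soluble members, 0 were called in OVX by edgeR or by DESeq2. In edgeR 6 had an unadjusted p of 0.05 or less and 4 an adjusted one, and these 4 were under the fold limit. In MSC+RAW-TW against MSC, 2 were called lower, the collagen-binding integrin gene Itga2 (-1.51) and Met (-1.49), a receptor kinase that Dcn binds. In MSC+RAW-LPS-TW against MSC, 2 were called higher, Met at 2.95 ± 0.22 (edgeR, adjusted p = 5.71e-08) and Itga2 at 2.1 ± 0.39, and 2 lower, with the ATP receptor P2rx7 at -1.41 ± 0.17. Against MSC+RAW-TW, 6 were called higher and 1 lower.

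Of 16 growth factor and receptor genes whose products members bind, 4 were called higher and 2 lower in OVX, with the TGF-beta receptor Tgfbr1 at a log2 fold change of 1.74, Bmp4 at 1.63 and Ccn4 at 1.25. The 2 called lower, named after their values were seen, were Tgfb1, at 65.7 to 81.9 CPM in OVX against 141.0 to 203.0 CPM in sham, and Tnf, at 100.6 to 114.0 against 192.9 to 293.6 CPM. The median over the list was 0.67, beside -0.01 over all genes. For MSC+RAW-TW against MSC, Tnf (1.45) was the 1 called higher and Fgf2 (-2.87) the 1 called lower. In MSC+RAW-LPS-TW against MSC, 4 were called higher and 3 lower, with Igf1 at -3.99 ± 0.21 (edgeR, adjusted p = 1.44e-09), Bmp4 at -3.59 ± 0.38 and Tnf at 2.49 ± 0.16. Against MSC+RAW-TW, 4 were called higher and 3 lower, or 25% and 18.8% of the list beside 15.4% and 12% of all genes.

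Proteases that can cleave the members made up the last list. In MSC+RAW-LPS-TW, 8 of 13 were called against MSC and 9 of 13 against MSC+RAW-TW, each of them higher, and the median log2 fold changes were 1.50 and 1.85. Mmp3, stromelysin, ranged from 20.1 to 21.1 CPM in MSC, from 24.6 to 25.4 CPM in MSC+RAW-TW and from 2119 to 2162 CPM in MSC+RAW-LPS-TW, a log2 fold change of 6.69 ± 0.19 over MSC (edgeR, adjusted p = 2.01e-12). Mmp9 was at 4.24 ± 0.17 and Mmp13, a collagenase, at 3.03 ± 0.17 in the same contrast. In MSC+RAW-TW against MSC, 0 of 13 were called by edgeR or by DESeq2. In edgeR 5 had an adjusted p of 0.05 or less and were under the fold limit, and 5 an unadjusted one. In OVX, 2 were called higher and 3 lower, and Mmp3 ranged from 7.68 to 8.97 CPM against 109.6 to 115.3 CPM in sham, a log2 fold change of -3.79. Mmp9 was at -1.72 and Adamts15 at -2.05 there.

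The genes whose log2 CPM followed a member most closely were taken over the 5 samples of each experiment, from 13206 and 13681 genes. The samples of an experiment share their groups and depth, and with 5 samples many genes reach a high correlation. In the BMM experiment the closest were Has2 for Aspn (r = 0.9997), Adamts1 for Ogn (0.9999), Hmgn3 for Omd (0.9991) and Nadk for Bgn (0.9996). In the MSC experiment they were Ido2 for Dcn (0.9999), Ptgs2 for Lum (0.9999), Hibch for Ogn (0.9983), Esm1 for Omd (0.9972) and Itga8 for Prelp (0.9995).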

How the data were processed

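RNA-seq was measured in 6 BMM and 6 MSC libraries. Per the study's methods, the authors trimmed reads with Trim Galore 0.6.7, aligned them with HISAT2 2.1.0 and counted them with featureCounts 2.0.1. The authors deposited unnormalized counts for each gene, with exon lengths. Genes were named from GRCm38 annotation tables, which matched 55141 of 55487 identifiers. The members and gene lists were chosen with earlier results of these data known.

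Here counts were scaled with TMM factors and given as CPM. The test was edgeR 4.0.16 (quasi-likelihood, filterByExpr) in R 4.3.3, with 1 fit per experiment over 5 samples after near-identical libraries were summed, and with Benjamini-Hochberg adjustment over all genes tested. Intervals and tests cover counting error and the spread between libraries. Of each gene list, at most the 3 called genes with the largest change, among those averaging 1 CPM or more, were named. So were at most 2 not called with the highest level. Of each marker list the 3 with the highest level were named, beside defining markers that were absent. Ibsp was also named in the MSC experiment, where it was not among these 3. DESeq2 1.42.0, other scalings and filters, removal of GC and length trends (lowess, span 0.3) and leaving out libraries were alternatives. The library number block, leaving out sham replicates 2 and 3 together and use of 1 MSC+RAW-TW library were chosen after seeing the data. The main fit did not pair the BMM libraries by replicate number, and a replicate block was an alternative. The fit was tested on simulated data. Promoter sequences are from RefSeq (GRCm38.p6), which matched 6 of 8 members, with none for Dcn and Lum.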

Additional observations from a re-analysis of the deposited data

How the results depend on the processing

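Over the alternatives, the log2 fold change in OVX ranged from 1.45 to 3.64 for Aspn, from 1.49 to 2.77 for Ogn and from 1.92 to 4.25 for Omd, a description, since this contrast chose the family. Over MSC, Dcn ranged from 4.45 to 4.77 and Lum from 5.48 to 6.28 in MSC+RAW-LPS-TW. Over MSC+RAW-TW, Dcn ranged from 5.39 to 6.55 and Lum from 6.34 to 7.1 in the same group. In MSC+RAW-TW against MSC, where Aspn, Fmod and Omd were not called, directions turned: Aspn to -0.33 and Fmod to -0.12 with raw totals, Aspn to -3e-05 with all libraries separate, and Omd to 0.47 and Fmod to -0.07 with GC and length trends removed. Without 1 library each, Aspn ranged from -0.11 to 0.17, and over all alternatives from -0.33 to 1.25. In OVX, Fmod turned to -0.1 without sham replicate 1 and Lum to -0.0056 with GC and length trends removed, and neither had been called. With these trends removed, the members called in OVX were Ogn, higher, and Dcn, lower, which had not been called before. Removing GC and length trends gave 590 called genes in OVX with 2 members, and 2165 in MSC+RAW-TW against MSC with 0 members. Without the fold limit 2193, 5862 and 4286 genes were called in OVX, MSC+RAW-TW and MSC+RAW-LPS-TW against MSC. Leaving out 1 library gave 309 to 2390 genes and 1 to 3 members in OVX, 2603 to 4231 genes and 1 to 2 members in MSC+RAW-TW, 1925 to 2781 genes and 5 to 6 members in MSC+RAW-LPS-TW, and 5373 to 6481 genes and 2 to 5 members between the co-cultures. The causes were not tested. The lone sham sample left by such a fit is assumed to vary like OVX.

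With the replicate block and all 6 BMM libraries separate, 2117 genes (1391 higher) and 3 members were called. Deviations of same-numbered libraries correlated at 0.473, -0.038 and 0.446, and 4 of 6 libraries correlated best with their own number. A block on the replicate numbers of the labels could not be fitted in the MSC experiment, where the columns of both co-culture groups do not match those numbers. A block on the 2 runs of library numbers, chosen after seeing the data, called 2, 6 and 5 members in MSC+RAW-TW against MSC, MSC+RAW-LPS-TW against MSC and between the co-cultures. Of Aspn and Omd, values under 1 CPM in sham and MSC+RAW-LPS-TW are limited by counts as low as 2.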
